A study of Mus musculus with 24 samples.

Results

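Microglia from Cre+ mice that had gone through cuprizone demyelination and 6 weeks of recovery were compared with microglia from naive Cre+ mice. The comparison rests on 6 of the 24 RNA-seq libraries of the series, 3 in each group. Libraries were assigned by their labelled state and genotype and not by any measured value. The comparison itself and its gene lists were chosen with earlier results of these data known. All mice of the series received tamoxifen. Cre+ mice carried creERT2, a recombinase that tamoxifen activates, under control of Cx3cr1. The series text describes them as induced Dicer1 knockouts, and both groups compared here share that description. Whether the deletion was equal in both was not tested. The labels do not describe the Dicer1 allele. Naive mice received tamoxifen only, at a time labelled as the start. Mice of the remyelination groups were fed cuprizone for 6 weeks and then normal diet for 6 weeks, and those labelled as treated at the peak, called peak Cre+ here, received tamoxifen in week 5 of cuprizone. The demyelination group was sampled at the end of 6 weeks of cuprizone. For it, and for the other remyelination group, tamoxifen is labelled as given at the start. The time is given as 4-5 weeks, and the labels name no week of cuprizone for it. Cre- mice, labelled as wild type, were sampled in the same states. The cells were sorted from brain as CD45-intermediate and CD11b-positive, a gate that holds microglia and can hold other myeloid cells. Cx3cr1 drives Cre in microglia but is also active in other macrophages and in monocytes. The series text calls the 3 samples of a group biological replicates, and the labels do not say whether animals were pooled.

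Cuprizone is a copper chelator that kills mature oligodendrocytes and strips myelin from the corpus callosum. Microglia respond by dividing, by taking up myelin debris and by switching on a lipid-handling and lysosomal programme marked by Apoe, Axl, Gpnmb and Igf1, together with interferon-response and antigen-presentation genes. When cuprizone is withdrawn, oligodendrocyte precursors rebuild myelin and microglia normally return toward a resting state marked by P2ry12 and Tmem119. Dicer1 cleaves precursor hairpins into mature microRNAs, short RNAs that repress many messages, and cells that lose it gradually lose their microRNAs.

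Levels are given as counts-per-million (CPM) with library sizes scaled by TMM, and changes as log2 fold changes with their standard errors (SE) from edgeR's quasi-likelihood fit to all 24 libraries. Adjusted p values are from that test with Benjamini-Hochberg adjustment over 17579 genes, and a gene below 0.05 is called higher or lower. CPM are not divided by transcript length, so they are compared between groups and not between genes. Genes named with a log2 change but no library values are list members chosen after their values were seen, unless the naming rule gave them.

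Several facts of the libraries touch every result. Total counts were 23529082 to 44526670 in the naive Cre+ libraries and 9769650 to 10457578 in the peak Cre+ libraries. Over the whole series, both remyelination states lay at 8873275 to 12560540 and the naive and demyelination states at 19476284 to 44526670. The labels name no sequencing batch. Recovery after cuprizone, the set of libraries it was measured in and the time of tamoxifen (at the start in naive mice, in week 5 of cuprizone in peak mice) cannot be told apart, and this holds for every difference between peak and naive given here. Of all genes tested, 9308 of 17579 (52.9%) had values in the 2 groups that did not overlap. The correlation between replicates was 0.979 to 0.984 in naive Cre+ and 0.960 to 0.962 in peak Cre+.

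In the groups compared, a pair of libraries stood apart. Naive Cre+ replicate 1 had 227.1 CPM of Cx3cr1, against 4432 and 4571 in replicates 2 and 3. It also had the lowest naive level of the proliferation genes given below, Pcna excepted. Peak Cre+ replicate 3 had 6208 CPM summed over 12 neutrophil markers, against 1185 and 1264 in replicates 1 and 2, and 769.8 CPM over 10 monocyte markers, against 125.8 and 134. Each gene list was recomputed without naive replicate 1, without peak replicate 3 and without both. Outside these groups, demyelination Cre+ replicates 1 and 3 were also classed as low in Cx3cr1. Leaving both out leaves 1 library in that group, so the demyelination values below include them.

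The targeted gene was read first. Dicer1 (chr12:104687742-104751952 in GRCm38) had 21.81, 22.06 and 24.31 CPM in naive Cre+ replicates 1 to 3 and 31.57, 30.45 and 32.44 CPM in the peak Cre+ replicates, so the groups did not overlap. The log2 change was 0.47 ± 0.16 (SE; edgeR adjusted p = 0.0199). The change was 0.03 with adjusted p = 0.886 after correction for GC content and transcript length, and the call was also lost without peak Cre+ replicate 1 (adjusted p = 0.052) or replicate 3 (adjusted p = 0.0653). In Cre- mice Dicer1 was 13.91 ± 4.05 CPM when naive and 32.9 ± 1.98 CPM at the peak state (SD, n = 3 each). The exon that Cre removes is not named in the labels, and a count over the whole gene also holds the exons that stay, so these values do not check the deletion. Cx3cr1 (chr9:119901616-120069879), the receptor gene that drives Cre, was 3742, 3585 and 3651 CPM in peak Cre+, close to naive replicates 2 and 3, and no difference was detected (log2 change 0.25 ± 0.94, edgeR adjusted p = 0.853). Without naive replicate 1 its direction turned (log2 -0.27, adjusted p = 0.834), and all 3 peak values lay below naive replicates 2 and 3. It was 10410 ± 1610 CPM in naive Cre- and 7736 ± 1190 CPM in peak Cre- (SD, n = 3 each).

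Of the 17579 genes tested, 3976 (22.6%) were higher and 4083 (23.2%) lower in peak Cre+ than in naive Cre+ by edgeR's test. In Cre- mice, peak against naive gave 5140 genes higher (29.2%) and 4942 lower (28.1%). The median log2 change over all genes was 0.04 in Cre+ and 0.10 in Cre-. The split in Cre+ moved with the scaling, from 49.3% of calls higher to 62.0% with upper quartile scaling, which put the median of all genes at 0.16, and to 39.1% after correction for GC content and length, which put it at -0.07. These shares are the background against which the gene lists below are to be read, but they cover genes of all levels. Among protein-coding genes whose groups did not overlap and which reached the lowest level set for named genes, 1477 were called higher and 3541 lower. More falls than rises on a list of abundant genes, such as the lysosomal or homeostatic list, is thus not by itself particular to that list. Whether such lists fell more than other genes of like level was not tested.

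Genes of G2 and mitosis rose together in peak Cre+. Of 25 genes on the list, 22 were higher and none lower, with a median log2 change of 1.19. They encode the kinases, motors and spindle proteins that carry a cell through division. In Cre- mice the same list had 0 genes higher, 4 lower and a median of -0.62. In the fit restricted to the 6 libraries the Cre+ count was 5, with a median of 1.25. That fit called 3341 of all genes higher and 3313 lower, against 3976 and 4083 in the full fit. The list thus lost a larger part of its calls than all genes did, while its median stayed.

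Promoters of 3 proliferation genes are shown because many members of these lists share short elements there, which are typical of genes switched on in the cell cycle. The windows run from 250 bases before to 50 after the gene start in RefSeq on GRCm38.p6, and capitals mark the letters TTTGAA and CCAAT (or ATTGG, its other strand) as well as TTTCGCGC and TTTGGCGC. The last 2 overlap in Mcm5, where TTTGGCGC is read on the other strand.
Mki67, minus strand, chr7:135716330-135716629: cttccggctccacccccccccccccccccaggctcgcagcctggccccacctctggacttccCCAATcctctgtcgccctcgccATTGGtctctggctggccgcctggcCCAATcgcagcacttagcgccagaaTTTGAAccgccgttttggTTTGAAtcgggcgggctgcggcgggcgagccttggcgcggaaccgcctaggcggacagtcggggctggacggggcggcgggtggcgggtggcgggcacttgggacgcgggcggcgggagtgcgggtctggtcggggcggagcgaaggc
Cdk1, minus strand, chr10:69352863-69353162: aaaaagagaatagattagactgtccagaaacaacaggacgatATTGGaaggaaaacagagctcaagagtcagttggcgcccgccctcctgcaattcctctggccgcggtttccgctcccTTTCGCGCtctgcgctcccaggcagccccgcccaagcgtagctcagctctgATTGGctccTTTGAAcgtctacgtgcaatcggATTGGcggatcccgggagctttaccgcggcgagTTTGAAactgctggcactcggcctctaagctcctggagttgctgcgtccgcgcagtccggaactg
Mcm5, plus strand, chr8:75109259-75109558: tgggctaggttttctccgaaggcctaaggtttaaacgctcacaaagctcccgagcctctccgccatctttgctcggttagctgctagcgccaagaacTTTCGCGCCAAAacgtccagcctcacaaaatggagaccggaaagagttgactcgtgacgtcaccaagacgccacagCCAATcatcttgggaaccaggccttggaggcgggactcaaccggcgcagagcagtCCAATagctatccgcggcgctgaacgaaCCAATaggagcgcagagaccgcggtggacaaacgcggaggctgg
All 3 windows held 3 matches to CCAAT. The Mki67 and Cdk1 windows each held 2 matches to TTTGAA and the Mcm5 window none, and TTTCGCGC was in the Cdk1 and Mcm5 windows. Over the G2 and mitosis list, TTTGAA was found in 15 of 20 genes with a window (75.0%) and in 20.2% of all 27025 genes, and CCAAT in 17 of 20 (85.0%) and in 41.1% of all. TTTCGCGC was in 1 of the 20 (5.0%) and TTTGGCGC in 0. Over the S phase list, TTTCGCGC was in 4 of 19 (21.1%) against 0.4% of all genes, TTTGGCGC in 5 of 19 (26.3%) against 0.6%, CCAAT in 11 of 19 (57.9%) and TTTGAA in 3 of 19 (15.8%). Both strands were searched, and a match describes letters, not a bound site.

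Mki67 (ENSMUSG00000031004, chr7:135689784-135716361), a coat protein of mitotic chromosomes and the standard marker of dividing cells, had 3.463, 18.2 and 18.35 CPM in naive Cre+ and 51.1, 50.83 and 49.27 CPM in peak Cre+. The peak libraries lay close together and above every naive library. The change was 3.73-fold (log2 1.90 ± 0.37, edgeR adjusted p = 0.000397), and in the fit restricted to the 6 libraries its adjusted p was 0.0595. In Cre- mice Mki67 was 3.694 ± 0.928 CPM when naive and 2.431 ± 0.55 CPM at the peak state (SD, n = 3 each). The Cre+ demyelination libraries, at the height of cuprizone damage, had 27.87 ± 1.01 CPM, and peak Cre+ stood above them (log2 difference 0.85 ± 0.36, edgeR adjusted p = 0.0469). The G2 and mitosis list as a whole did not: 2 of 25 genes were higher and 5 lower than at demyelination, with a median of -0.26. Of all genes, 30.1% were higher and 28.6% lower in that comparison.

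Cdk1 (ENSMUSG00000019942, chr10:69335146-69352938), the kinase that starts mitosis, had 5.944, 12.88 and 11.61 CPM in naive Cre+ and 20.8, 15.22 and 19.18 CPM in peak Cre+, with a log2 change of 0.84 ± 0.20 (edgeR adjusted p = 0.00159). Unlike Mki67, it stood below its demyelination level of 53.91 ± 4.63 CPM (SD, n = 3; log2 difference -1.55 ± 0.20, adjusted p = 3.04e-07). Aurkb, which corrects chromosome attachment to the spindle, went from 2.808, 7.805 and 6.577 CPM to 16.79, 11.35 and 14.2 CPM (log2 1.28 ± 0.28, adjusted p = 0.000578). Foxm1, the transcription factor that drives many mitotic genes, went from 2.714, 7.732 and 7.577 CPM to 18.52, 13.76 and 17.68 CPM (log2 1.46 ± 0.31, adjusted p = 0.000441). In both genes all peak libraries were above all naive ones, and naive replicate 1 was the lowest library. Ccnb1, the cyclin partner of Cdk1, had 3.557, 14.86 and 13.73 CPM against 27.37, 20.38 and 19.65 CPM (log2 1.05 ± 0.32, adjusted p = 0.0116), a call that was lost in the fit restricted to the 6 libraries (adjusted p = 0.148). Racgap1, needed for the final split of the daughter cells, rose by 1.35 ± 0.29 on the log2 scale, and its adjusted p was 0.0897 in that restricted fit.

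Naive Cre+ replicate 1 carried part of this difference. Without it, 20 of the 25 G2 and mitosis genes were still higher and the median log2 change was 0.83 in place of 1.19. Without peak Cre+ replicate 1 the count was 15, without peak Cre+ replicate 3 it was 18, and with naive replicate 1 and peak replicate 3 both left out it was 16 with a median of 0.73.

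Fewer DNA replication genes passed the test. On the list of 23 S phase genes, 8 were higher and 1 lower, with a median log2 change of 0.38. In Cre- mice 1 was higher and 8 lower, with a median of -0.41. Mcm5 (chr8:75109569-75128439), a subunit of the helicase that opens DNA for copying, had 8.939, 20.8 and 20.31 CPM in naive Cre+ and 33.67, 27.87 and 35.64 CPM in peak Cre+ (log2 0.95 ± 0.20, edgeR adjusted p = 0.000445). Pola1, the polymerase that primes new strands, went from 2.995, 6.838 and 4.731 CPM to 11.5, 11.27 and 10.91 CPM (log2 1.19 ± 0.23, adjusted p = 0.00016). The peak libraries were above all naive libraries for both genes. Uhrf1, which carries DNA methylation to new strands, had 1.638, 8.046 and 9.192 CPM against 20.26, 12.73 and 23.04 CPM (log2 1.55 ± 0.39, adjusted p = 0.00296), a call that was lost in the fit restricted to the 6 libraries (adjusted p = 0.0908). Pcna, the clamp that holds polymerases on DNA, went the other way, from 57.1, 62.25 and 53.96 CPM to 46.17, 43.44 and 43.35 CPM (log2 -0.38 ± 0.10, adjusted p = 0.00382), a call that was lost after correction for GC content and length, where the change was -0.16. The count of higher S phase genes was 4 without naive replicate 1, 4 without peak replicate 3, 3 without both, 5 in the fit restricted to the 6 libraries and 13 with upper quartile scaling. With both libraries left out the log2 change was 0.57 for Mcm5, 0.93 for Uhrf1 and 0.54 for Cdk1.

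Brakes of the cell cycle did not move as a block. On the list of 16 G1 cyclins, kinases and inhibitors, 4 were higher and 3 lower with a median of 0.25, which became -0.02 after correction for GC content and length. With upper quartile scaling 7 were higher, and without peak replicate 3, or without it and naive replicate 1, 5 were lower. Cdkn1a (chr17:29090976-29100727), the p21 inhibitor that p53 induces, had 10.81, 23.95 and 18.54 CPM in naive Cre+ and 58.31, 42.49 and 44.95 CPM in peak Cre+, a 2.71-fold rise (log2 1.44 ± 0.22, edgeR adjusted p = 4.18e-05). The inhibitors Cdkn1c and Cdkn1b fell by 1.29 ± 0.20 and 0.78 ± 0.15 on the log2 scale. Rb1, the retinoblastoma protein that holds E2F factors inactive, rose by 0.97 ± 0.16, and Ccnd2, a cyclin that relieves that hold, rose by 1.61. Among 20 p53 targets 5 were higher and 2 lower with a median of 0.04, which was -0.04 without the filter on low counts and -0.02 with naive replicate 1 and peak replicate 3 left out. Phlda3, an inhibitor of Akt signalling, was at 0.4212, 0.8941 and 0.6154 CPM against 3.741, 2.838 and 2.821 CPM (log2 2.23 ± 0.39, adjusted p = 6.02e-05). Btg2 and Sesn1, both growth-restraining p53 targets, fell by 0.87 ± 0.14 and 0.63 ± 0.11.

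**Figure D1:**
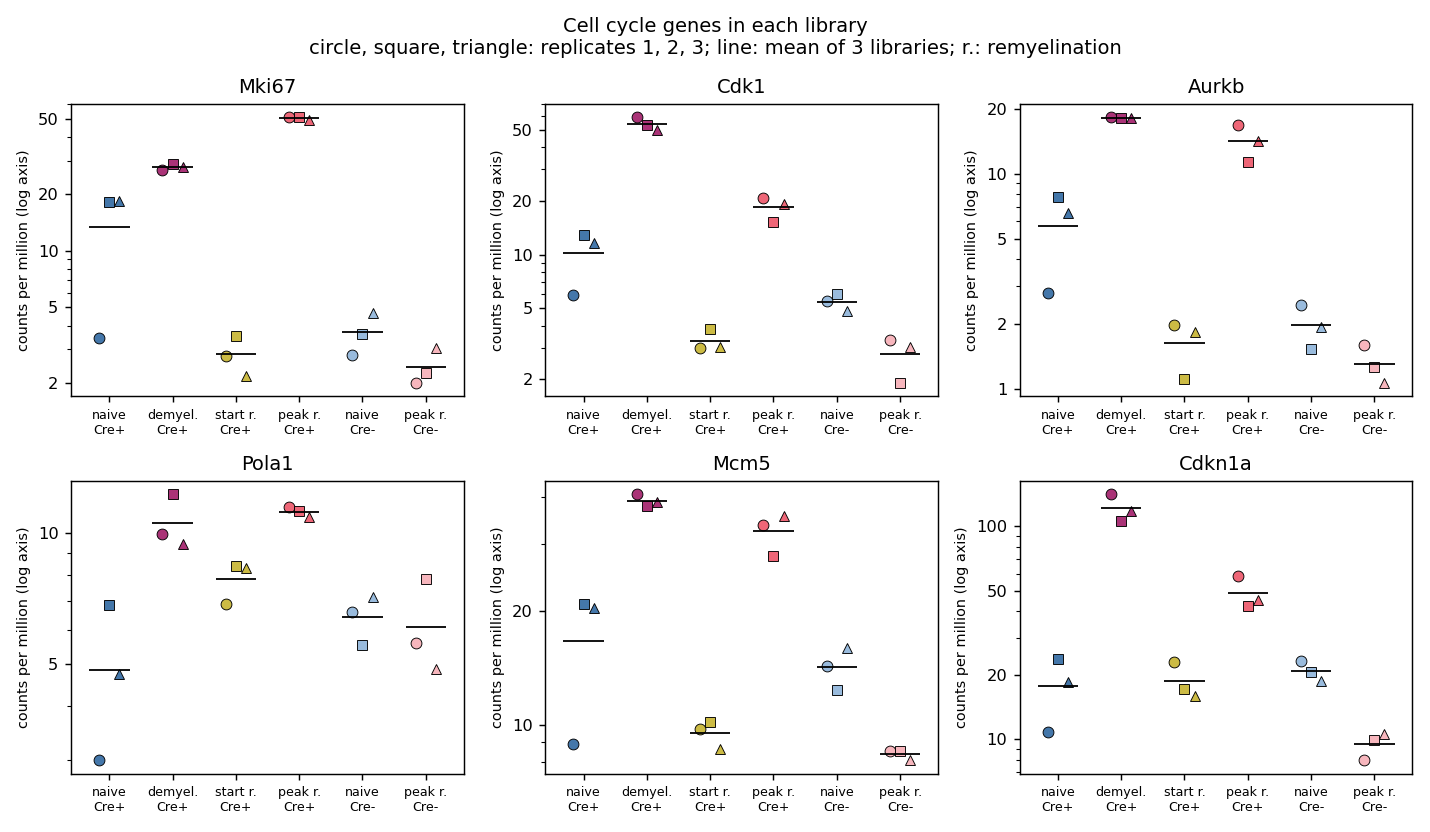
CPM of Mki67, Cdk1, Aurkb, Pola1, Mcm5 and Cdkn1a in each library (log axis), by group, in Cre+ mice (naive, demyelination, start and peak remyelination) and in naive and peak Cre- mice. Circles, squares and triangles are replicates 1 to 3 and lines are means; Mki67 lies between 49.27 and 51.1 CPM in peak Cre+ and at 3.463 in naive Cre+ replicate 1.

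The other recovered Cre+ group gave a comparison within libraries of like depth, which shares the peak libraries and was added after the data were seen. The groups differ in the time of tamoxifen and in the style of their library titles. The labels name no sequencing batch, so the time of tamoxifen and the set of libraries cannot be told apart here either. Between peak and start remyelination in Cre+, 1552 genes (8.83%) were higher and 839 (4.77%) lower at the peak by edgeR's test. All 25 G2 and mitosis genes were higher, with a median log2 difference of 3.28, and 19 of 23 S phase genes were higher and none lower, with a median of 1.05. Mki67 was 2.818 ± 0.694 CPM in start Cre+ (SD, n = 3), below all peak libraries (log2 difference 4.14 ± 0.44, adjusted p = 1.79e-05). Cdk1 was 3.275 ± 0.461 CPM and Mcm5 9.529 ± 0.793 CPM in start Cre+, with log2 differences of 2.48 ± 0.24 and 1.76 ± 0.21. Cdkn1a was 18.75 ± 3.85 CPM there, a log2 difference of 1.37 ± 0.23. In all 4 genes the start level was below the peak level.

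Part of the activation programme was above naive levels after recovery. On the list of 29 disease-associated genes tested, 15 were higher and 7 lower in peak Cre+, with a median log2 change of 0.97. At demyelination, in a comparison that shares the naive Cre+ libraries and gave 26.3% of all genes higher and 25.9% lower, all 29 were higher with a median of 4.29. From demyelination to peak, in a comparison that shares the peak libraries and gave 30.1% of all genes higher and 28.6% lower, all 29 were lower with a median of -3.53. Between peak and start remyelination 16 were lower and 1 higher. In Cre- mice 13 were higher and 11 lower from naive to peak, with a median of 0.72. Markers of other myeloid cells also rose in the peak libraries, as given below, and the part of such cells in these changes was not tested.

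Apoe (chr7:19696109-19699188), the lipid carrier that marks activated microglia, had 214.6, 192 and 237.8 CPM in naive Cre+ and 1607, 1512 and 1880 CPM in peak Cre+, a 7.78-fold rise (log2 2.96 ± 0.22, edgeR adjusted p = 6.64e-09). It had been 34060 ± 7210 CPM at demyelination and was 5157 ± 935 CPM in start Cre+ (SD, n = 3 each). Peak Cre+ thus lay below the demyelination level (log2 difference -4.35 ± 0.24, adjusted p = 3.19e-12) and above every naive library. Axl (chr7:25757273-25788705), a receptor for dying cells, had 17.13, 12.52 and 19.88 CPM against 86.41, 95.9 and 97.14 CPM (log2 2.50 ± 0.26, adjusted p = 6.33e-07). Igf1, a growth factor for oligodendrocyte precursors, had 0.5148, 1.208 and 0.923 CPM against 10.22, 7.569 and 6.488 CPM (log2 3.10 ± 0.33, adjusted p = 7.7e-07), after 260.2 ± 77.7 CPM at demyelination. For Axl and Igf1 the groups were well apart. Gpnmb (chr6:49036546-49070929), a glycoprotein of lipid-laden phagocytes, rested on 2, 3 and 3 reads in naive Cre+ and 64, 51 and 65 reads in peak Cre+ (log2 5.81 ± 0.81, adjusted p = 2.21e-05), so the size of its rise is poorly fixed. Cd36, a scavenger receptor for oxidised lipid, rose by 2.81 ± 0.21 on the log2 scale. Among members chosen after their values were seen, Cst7, a cathepsin inhibitor, had 5.71, 4.833 and 4.307 CPM against 13.14, 13.76 and 18.71 CPM (log2 1.62 ± 0.26), after 2400 ± 416 CPM at demyelination. Spp1, the secreted protein osteopontin and chosen in the same way, went from 7.769, 6.355 and 5.961 CPM to 29.02, 22.36 and 24.73 CPM, after 4140 ± 1090 CPM at demyelination. The 7 members that fell were the lysosomal proteases Ctsl, Ctsz and Ctsd, the lysosomal protein Cd68, the tetraspanin Cd9, the class I light chain B2m and the iron store Fth1, with log2 changes of -0.91 for Ctsl to -0.32 for Ctsd.

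**Figure D2:**
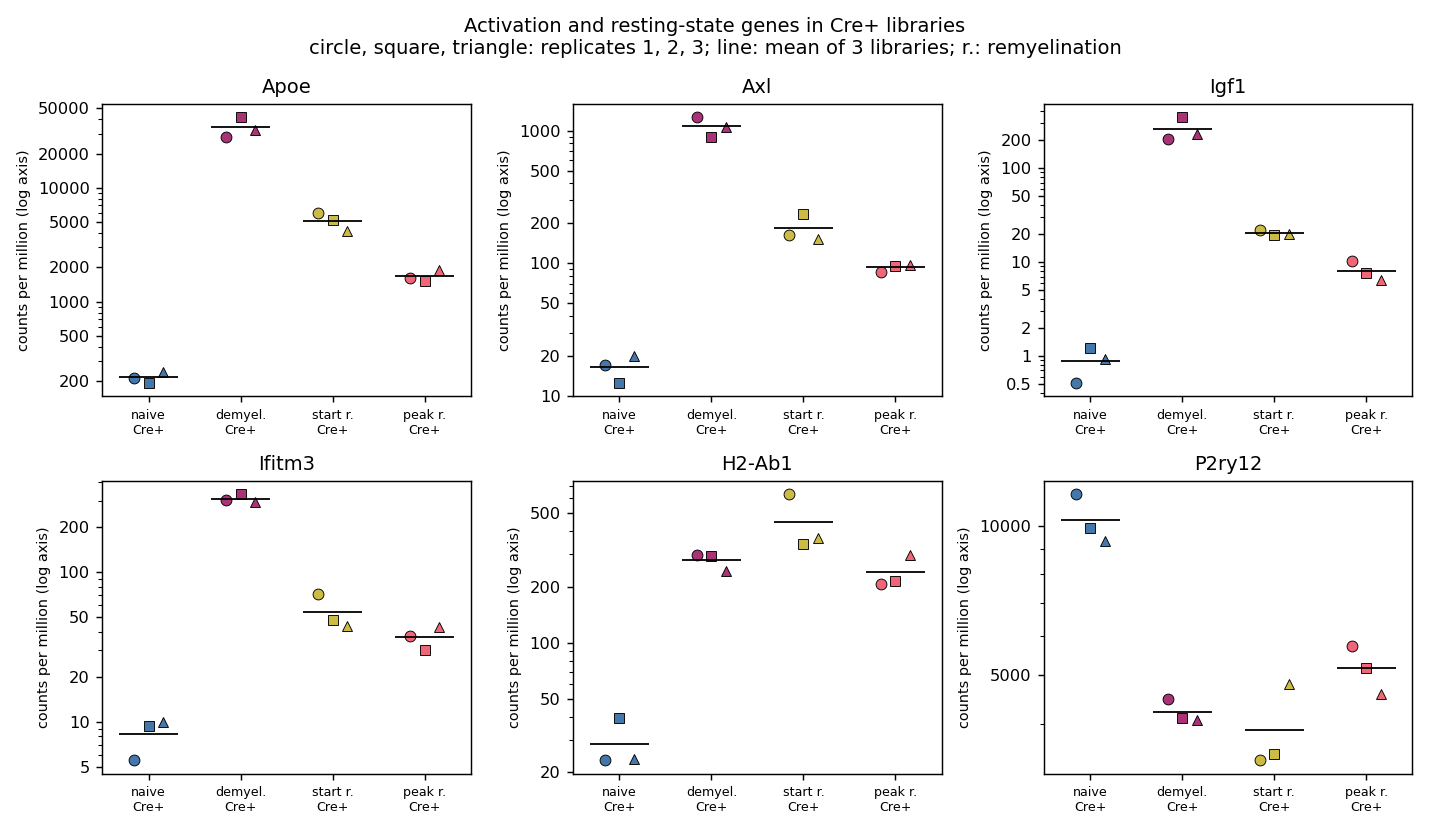
CPM in each library (log axis) of Apoe, Axl, Igf1, Ifitm3, H2-Ab1 and P2ry12 in the 4 Cre+ groups. Symbols are replicates 1 to 3 and lines are means; Apoe peaks at demyelination (mean 34060 CPM) and lies between 1512 and 1880 CPM in peak Cre+, above the naive libraries at 192 to 237.8 CPM.

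Interferon-response genes encode antiviral proteins that microglia make when interferon signalling is on. Of 31 tested, 14 were higher and 4 lower in peak Cre+ with a median log2 change of 0.52. In Cre- mice 11 were higher and 4 lower with a median of 0.17, and at demyelination in Cre+ 30 were higher and none lower with a median of 3.24. The split was 18 higher and 1 lower with upper quartile scaling and 10 higher and 3 lower without peak Cre+ replicate 1, where the median was 0.40. Ifitm3 (chr7:141009586-141010770), a membrane protein that blocks virus entry, is shown by its promoter window because it holds 2 copies of the motif that the list was searched for, GAAANNGAA (capitals), a letter pattern read by interferon regulatory factors.
Ifitm3, minus strand, chr7:141010695-141010994: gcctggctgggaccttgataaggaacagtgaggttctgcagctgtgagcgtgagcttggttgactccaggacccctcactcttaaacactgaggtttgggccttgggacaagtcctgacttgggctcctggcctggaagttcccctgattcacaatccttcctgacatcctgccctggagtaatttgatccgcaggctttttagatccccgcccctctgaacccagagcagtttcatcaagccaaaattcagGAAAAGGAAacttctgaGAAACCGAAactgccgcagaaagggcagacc
That motif was in 15 of 23 list genes with a window (65.2%) and in 9.8% of all genes. Ifitm3 itself had 5.522, 9.448 and 9.999 CPM in naive Cre+ and 37.68, 30.1 and 42.97 CPM in peak Cre+, a 4.38-fold rise (log2 2.13 ± 0.24, edgeR adjusted p = 1.42e-06). It had been 309.1 ± 19.1 CPM at demyelination (SD, n = 3), and in Cre- mice it rose by 1.08 ± 0.23. Zbp1, a sensor of nucleic acids in the Z form, went from 1.123, 1.716 and 2.115 CPM to 8.486, 5.763 and 4.984 CPM (log2 1.93 ± 0.27). Oas2, which makes the signal that activates RNase L, went from 1.076, 1.305 and 1.077 CPM to 8.395, 6.967 and 9.685 CPM (log2 2.83 ± 0.35). No peak library of these 3 genes fell within the naive range. Oas3 rose by 3.23 ± 0.47 from a naive level of 0.1538 to 0.3383 CPM, which is few reads, and Oas genes have close copies among which reads may be split. Irf9, Herc6, Ly6e and Ddx58 were the 4 members that fell, by 0.26 to 0.41, and the count of lower genes was 2 without naive replicate 1 and 1 without peak replicate 3.

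Some genes of antigen presentation on MHC class II rose and their peptide loaders were not called. Of 10 tested, 5 were higher and 1 lower, with a median log2 change of 1.05. The member that fell was H2-Oa, a brake on peptide loading (log2 -0.48). The 5 that rose were Ciita, the master activator of the class, the chains H2-Ab1, H2-Aa and H2-Eb1, and Cd74, the chain that guides them. Ciita went from 0.468, 0.4591 and 0.6923 CPM to 4.197, 4.215 and 4.608 CPM (log2 3.00 ± 0.29, edgeR adjusted p = 1.57e-08). H2-Ab1 went from 23.21, 39.12 and 23.54 CPM to 206.4, 214.9 and 298.2 CPM (log2 3.06 ± 0.27, adjusted p = 1.4e-07). H2-Eb1 (chr17:34305867-34316674) went from 10.62, 13.27 and 8.423 CPM to 95.17, 91.86 and 137.9 CPM (log2 3.32 ± 0.33, adjusted p = 6.47e-07). The groups did not overlap in any of the 3. Cd74 went from 129.3, 147.2 and 109.4 CPM to 442.7, 482.2 and 659.4 CPM (log2 2.04 ± 0.21). The peptide-loading genes H2-DMa, H2-DMb1 and H2-DMb2 had log2 changes of 0.06, -0.14 and -0.05 and were not called. In Cre- mice the same 5 genes rose, with Ciita at 2.69 ± 0.28 and H2-Ab1 at 2.54 ± 0.26. Border-associated macrophages carry class II and their markers rose with it: the sum over 10 such markers was 17.04 to 23 CPM in naive Cre+ and 186.1 to 256.8 CPM in peak Cre+. Their part in the class II result was not tested.

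MHC class I and its peptide loading changed in both directions, with 4 of 14 genes higher, 6 lower and a median log2 change of -0.10, which was 0.02 with upper quartile scaling. With naive replicate 1 and peak replicate 3 left out 2 were higher and 4 lower. Nlrc5, the activator of the class, rose from 4.212, 8.046 and 4.884 CPM to 20.44, 13.59 and 14.1 CPM (log2 1.46 ± 0.21, edgeR adjusted p = 9.2e-06; 0.96 after correction for GC content and length), and H2-Q4 rose by 1.73 ± 0.28. The immunoproteasome subunits Psmb9 and Psmb8 fell by 0.57 ± 0.10 and 0.61 ± 0.11. The classical heavy chains H2-K1 and H2-D1 had log2 changes of 0.03 and 0.02 and were not called. Class I heavy chains are near-identical copies, and how multiply mapping reads were counted is not known from the labels, so H2-Q4, H2-Q6 and H2-Q7 are uncertain.

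Among 22 inflammatory cytokines and chemokines 9 were higher and 3 lower in peak Cre+, with a median log2 change of 0.45, and in Cre- mice 7 were higher and 7 lower, with a median of 0.22. At demyelination in Cre+ 19 were higher and 1 lower, with a median of 3.58. Cxcl2 (chr5:90903871-90905938), which attracts neutrophils, had 2, 5 and 3 reads in naive Cre+ and 23, 25 and 30 reads in peak Cre+, or 0.0936 to 0.1208 CPM against 2.099 to 2.821 CPM (log2 4.31 ± 0.41, edgeR adjusted p = 1.54e-08). Cxcl14 went from 1.404, 1.281 and 2 CPM to 5.201, 8.171 and 7.617 CPM (log2 2.18 ± 0.27), and Ccl7, which attracts monocytes, from 0.4212, 1.933 and 1.923 CPM to 7.847, 5.763 and 6.394 CPM (log2 2.17 ± 0.37). At demyelination Cxcl2 had been 33.57 ± 1.66 CPM, Cxcl14 31.61 ± 7.29 CPM and Ccl7 6.889 ± 0.783 CPM (SD, n = 3 each), and for Ccl7 no difference between peak and demyelination was detected (log2 -0.05 ± 0.34, edgeR adjusted p = 0.909). Il1b, chosen after its values were seen, rose by 1.40 ± 0.32. Casp1, Il18 and Il1a, parts of the inflammasome and interleukin-1 system, fell by 0.87, 0.75 and 0.74. Tnf, Il6, Ccl2, Ccl3, Ccl4 and Nlrp3 were not called. Of 18 NF-kB pathway genes 2 were higher and 4 lower, with a median of 0.03, and without peak replicate 3 none were higher. That median was -0.09 after correction for GC content and length, -0.05 without the filter on low counts, and -0.06 and -0.04 without peak Cre+ replicate 1 or 2. Cd14, the co-receptor for lipopolysaccharide, fell by 0.85 ± 0.12, and Nfkb1, a subunit of the factor itself, fell by 0.54 ± 0.10.

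More cholesterol genes were higher than lower in Cre+. Of 23 in biosynthesis and its control 11 were higher and 3 lower, with a median log2 change of 0.39, and in Cre- mice 3 were higher and 6 lower, with a median of 0.00. Stard4, which carries cholesterol between membranes, had 1.544, 1.595 and 1.077 CPM in naive Cre+ and 8.942, 5.333 and 8.087 CPM in peak Cre+ (log2 2.39 ± 0.31, edgeR adjusted p = 1.45e-06). Its groups did not overlap. Dhcr7, the enzyme of the last step of the pathway, rose by 0.58 ± 0.09, and Ebp, an isomerase in the same stretch of the pathway, fell by 0.52 ± 0.10. The sterol-response motif searched for, TCACNCCAC, was in 1 of 16 genes with a window (6.2%) and in 1.4% of all genes.

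Of 20 genes of lipid uptake, efflux and storage 10 were higher and 3 lower, with a median log2 change of 1.01, against 9 higher and 4 lower in Cre- with a median of 0.53. Plin3, a coat protein of lipid droplets, went from 3.323, 5.533 and 5.115 CPM to 12.68, 9.977 and 15.42 CPM (log2 1.42 ± 0.18, edgeR adjusted p = 7.54e-07). Scd2, a desaturase of fatty acids, went from 49.23, 61.4 and 72.57 CPM to 144.5, 173 and 147.1 CPM (log2 1.34 ± 0.13, adjusted p = 2.39e-08). In Plin3 and Scd2 all peak libraries exceeded all naive ones. Msr1, a scavenger receptor on the phagocytosis list, rose by 1.51 ± 0.19. Abca1 and Abcg1, the main cholesterol exporters, had log2 changes of 0.31 and 0.22 and were not called, and Npc2, which moves cholesterol out of lysosomes, fell by 0.54.

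Genes of the resting microglial state were more often lower than higher. Of 25 homeostatic genes 1 was higher and 14 lower, with a median log2 change of -0.47, and in Cre- mice 3 were higher and 17 lower, with a median of -0.62. P2ry12, the receptor by which microglial processes sense ATP, went from 11570, 9921 and 9335 CPM in naive Cre+ to 5738, 5185 and 4577 CPM in peak Cre+ (log2 -0.99 ± 0.14, edgeR adjusted p = 6.53e-06). Gpr34, a receptor for lysophosphatidylserine, went from 4627, 4636 and 4303 CPM to 2417, 1967 and 1625 CPM (log2 -1.17 ± 0.15, adjusted p = 2.33e-06). In both genes no peak library reached the lowest naive library. P2ry13 fell by 0.93 ± 0.12 and Trem2, the lipid-sensing receptor, by 0.69 ± 0.08. Sall3 was the member that rose (log2 0.87), and the microglial identity genes Csf1r and Sall1 had log2 changes of -0.19 and 0.15 and were not called. Summed over 10 microglial markers, the level was 59800 to 64390 CPM in naive Cre+ and 39190 to 39750 CPM in peak Cre+. In such bulk libraries, fewer microglia among the sorted cells and less of these messages per microglial cell cannot be told apart. Between peak and start remyelination 8 homeostatic genes were higher and none lower, with a median of 0.22.

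Lysosomal genes had a like split. Of 34 lysosomal genes 1 was higher and 18 lower, with a median log2 change of -0.28. At demyelination in Cre+ 26 were higher and 5 lower, with a median of 0.84, and in Cre- mice 3 were higher and 20 lower from naive to peak. Ctss, a protease that cuts the class II chaperone chain, went from 8248, 7519 and 6612 CPM to 4234, 3583 and 3623 CPM (log2 -0.97 ± 0.10, edgeR adjusted p = 9.02e-08), after 13800 ± 328 CPM at demyelination (SD, n = 3). Cd68, a lysosomal glycoprotein of phagocytes, went from 1221, 1170 and 1122 CPM to 741.5, 694.1 and 756.2 CPM (log2 -0.68 ± 0.09), and Ctsa, a protective carboxypeptidase, fell by 0.64 ± 0.09. Each of the 3 had separate groups. The motif TCACGTGA, read by TFEB, was in 6 of 28 lysosomal genes with a window (21.4%) and in 1.1% of all genes, and Tfeb itself had a log2 change of -0.09 and was not called. Among 25 phagocytosis receptors and complement genes 5 were higher and 11 lower, with a median of -0.17. Fcgr3, an activating receptor for antibody, went from 2203, 2126 and 1944 CPM to 1008, 946.6 and 1022 CPM (log2 -1.08 ± 0.09, adjusted p = 4.42e-09). The complement C1q chains C1qa, C1qb and C1qc fell by 0.40, 0.62 and 0.63. Axl, Msr1, Stab1, Itgav and C3 were the 5 that rose. C3 had 9.49 and 10.49 CPM in peak replicates 1 and 2 and 74.66 CPM in replicate 3, and its log2 change of 3.69 ± 0.72 was 2.02 without that replicate.

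Growth and repair factors rose in 9 of 16 cases and fell in none, with a median log2 change of 0.80, and in Cre- mice 10 rose and 1 fell, with a median of 0.74. Vegfa, which acts on vessels, went from 1.076, 1.16 and 1.923 CPM to 3.467, 5.333 and 5.548 CPM (log2 1.79 ± 0.29, edgeR adjusted p = 2.07e-05). Lgals1, a galectin, rose by 2.08 ± 0.29. Several members (Igf1, Gpnmb, Spp1, Csf1, Lgals3) also stand on the disease-associated list, so the lists do not count separate genes. TGF-beta signalling, which maintains microglial identity, had 6 of 17 genes higher and 3 lower with a median of 0.20, against 10 higher and 2 lower in Cre- with a median of 0.83. Smad7, the pathway's feedback inhibitor, went from 24.9, 27.69 and 27.81 CPM to 63.69, 43.87 and 55.95 CPM (log2 1.02 ± 0.15, adjusted p = 7.51e-06), and Smad4, the shared partner of receptor Smads, rose by 1.22 ± 0.27. Nrros, which presents TGF-beta on microglia, fell by 0.48 ± 0.12.

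The rest of the microRNA pathway shifted little, and the shift moved with the processing. Of 14 genes 4 were higher and 2 lower with a median log2 change of 0.23, but 0 were higher and 4 lower, with a median of -0.14, after correction for GC content and length, and 9 were higher and 1 lower with upper quartile scaling. Tnrc6c, a silencing partner of Argonaute, went from 34.73, 35.5 and 37.96 CPM to 50.55, 52.47 and 54.54 CPM (log2 0.54 ± 0.14, edgeR adjusted p = 0.0027), and this was -0.01 with adjusted p = 0.954 after that correction. Ago4 and Drosha, with log2 changes of 0.49 ± 0.14 and 0.41 ± 0.13, lost their calls there too. Ran, which carries precursor export, fell by 0.42 ± 0.10.

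**Figure D3:**
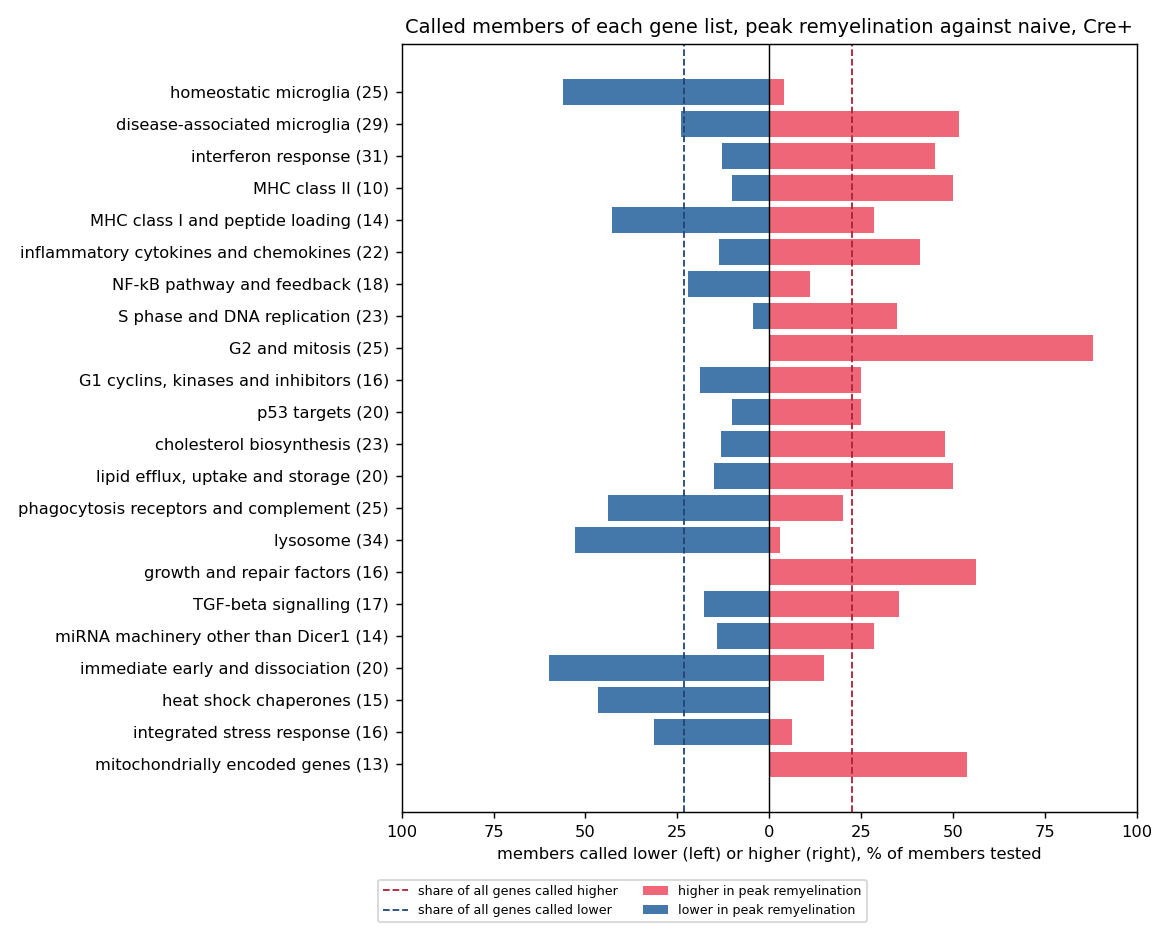
Percent of the tested members of 22 programme lists that were called lower (bars to the left) and higher (bars to the right) in peak Cre+ against naive Cre+. Dashed lines mark the share of all genes tested, 23.2% lower and 22.6% higher; the G2 and mitosis list has 22 of 25 members higher and none lower.

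Among stress-linked messages more were lower than higher. Of 20 immediate early genes, which are induced within minutes of stimulation and by cell dissociation, 3 were higher and 12 lower, with a median log2 change of -0.76, and in Cre- mice 3 were higher and 14 lower. Egr1, a transcription factor, went from 408, 374.2 and 509.1 CPM to 185.7, 135.6 and 180.8 CPM (log2 -1.36 ± 0.19, edgeR adjusted p = 1.21e-05), with no overlap between groups. Zfp36, which destabilises cytokine messages, fell by 1.10 ± 0.17 and Fos by 1.06 ± 0.22. Start Cre+ libraries were slightly deeper than the peak group, with total counts of 10701028 to 12560540 against 9769650 to 10457578. Against start Cre+, 8 of the 20 genes were lower at the peak and none higher, with a median log2 difference of -0.60. Zfp36 was lower by that comparison too (log2 -1.14 ± 0.17, adjusted p = 0.000143), as were Jun (-1.09) and Junb (-1.02). In start Cre+ Egr1 was 186.1 ± 28.7 CPM (SD, n = 3), and no difference from peak was detected (log2 -0.15 ± 0.19, adjusted p = 0.668).

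Heat shock chaperones fell in 7 of 15 cases and rose in none, with a median log2 change of -0.45. Hsp90aa1, the inducible form of a chaperone for kinases and receptors, went from 514.6, 487.8 and 500.9 CPM to 275.8, 201.7 and 212.2 CPM (log2 -1.12 ± 0.14, edgeR adjusted p = 8.7e-07). In Cre- mice it was 167.4 ± 19.9 CPM when naive and 156.3 ± 10.8 CPM at the peak state (SD, n = 3 each), so the naive Cre+ libraries were the high group. Hspe1 (chr1:55088132-55091307), the lid of the mitochondrial folding chamber, went from 61.68, 61.04 and 59.07 CPM to 38.69, 31.48 and 30 CPM (log2 -0.86 ± 0.12, adjusted p = 3.02e-06). Its promoter window is shown for the single match to the heat shock element searched for, GAANNTTC (capitals), which was in 8 of 11 chaperone genes with a window (72.7%) and in 9.0% of all genes.
Hspe1, plus strand, chr1:55087898-55088197: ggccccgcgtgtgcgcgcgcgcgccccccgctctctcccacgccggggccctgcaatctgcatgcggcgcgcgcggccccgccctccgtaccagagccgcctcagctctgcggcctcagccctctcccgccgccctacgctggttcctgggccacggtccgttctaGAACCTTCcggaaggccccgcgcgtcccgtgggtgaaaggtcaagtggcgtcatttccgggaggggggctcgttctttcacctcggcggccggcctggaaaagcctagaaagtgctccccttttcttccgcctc
Hspa1a and Hspa1b, near-identical copies whose reads may be split, had log2 changes of -0.55 and -0.61 and were not called. Of 16 genes of the integrated stress response, which slows translation, 1 was higher (0 without peak replicate 3) and 5 lower, with a median of -0.06 that was 0.06 with upper quartile scaling, 0.07 without naive replicate 3 and 0.09 without peak replicate 2. Nupr1 fell by 1.03 ± 0.12, Mthfd2 by 0.93 ± 0.16 and Atf4, the factor at the centre of the response, by 0.67 ± 0.13. The motif TGATGNAA was in 6 of 16 of its genes (37.5%) and in 4.5% of all genes.

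The largest rises outside these programmes were in a stretch of the mitochondrial genome and in macrophage genes. Of 13 mitochondrially encoded genes 7 were higher and none lower, with a median log2 change of 0.51. mt-Co3, a subunit of cytochrome oxidase, had 0.7488, 0.5799 and 0.6538 CPM in naive Cre+ and 60.5, 58.57 and 42.41 CPM in peak Cre+ (log2 6.37 ± 0.25, edgeR adjusted p = 3.44e-15). mt-Co2 and mt-Atp6 rose by 6.66 ± 0.25 and 6.67 ± 0.27. These genes lie side by side, with mt-Nd3 (log2 1.29) and mt-Nd4l (log2 2.89), between positions 7013 and 10173 of the mitochondrial genome. The neighbouring mt-Co1 rose by 0.51, and mt-Nd1, mt-Nd2, mt-Nd4, mt-Nd5, mt-Nd6 and mt-Cytb had log2 changes of -0.42 to -0.12 and were not called. The rise of mt-Co3 was 6.64 ± 0.24 in Cre- mice, and its level was 47.11 ± 3.91 CPM in start Cre+ and 2.385 ± 0.235 CPM at demyelination (SD, n = 3 each). It was thus high in the remyelination libraries of both genotypes. Nuclear copies of mitochondrial sequence exist, and the same limit applies to them, so these values are uncertain. Lars2, the mitochondrial leucyl-tRNA synthetase, went from 404.2, 354.6 and 322.2 CPM to 1636, 1858 and 1815 CPM (log2 2.30 ± 0.19, adjusted p = 1.55e-08), and rose by 2.49 ± 0.19 in Cre-.

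Markers of border-associated macrophages, which sit at the meninges and vessels, rose in all 10 cases, with a median log2 change of 3.69. Mrc1 (chr2:14229392-14332057), the mannose receptor, had 5.99, 7.732 and 7.423 CPM in naive Cre+ and 77.56, 102.2 and 87.54 CPM in peak Cre+, a 12.6-fold rise (log2 3.65 ± 0.21, edgeR adjusted p = 3.47e-11). F13a1, a transglutaminase, went from 3.136, 2.561 and 4.307 CPM to 36.77, 49.97 and 60.65 CPM (log2 3.90 ± 0.29), and Pf4 rose by 3.73 ± 0.33. Cd163, a haemoglobin scavenger, had 15, 28 and 23 reads against 135, 212 and 173 (log2 4.37 ± 0.32). In Cre- mice all 10 rose too, with a median of 2.98, and the summed level there was 22.24 to 32.01 CPM when naive and 205.9 to 259.2 CPM at the peak state. More macrophages of this kind in the gate and higher expression by microglia cannot be told apart.

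Counts of monocyte and neutrophil markers changed with a single library. Of 10 monocyte markers 9 were higher with a median log2 change of 2.66, and without peak Cre+ replicate 3 the count was 5 and the median 0.90. Ccr2, the receptor that brings monocytes into tissue, was alike in the 3 peak libraries, with 6.599, 7.926 and 6.73 CPM in naive Cre+ and 26.74, 32.43 and 28.96 CPM in peak Cre+ (log2 2.04 ± 0.29, edgeR adjusted p = 2.01e-05). Of 12 neutrophil markers 11 were higher and 1 lower, and without that replicate 0 were higher and 1 lower, with medians of 2.85 and 0.50. Without naive replicate 1 the count of higher markers was 3, with a median of 2.625. Mpo, the myeloperoxidase of neutrophil granules, had 4.015, 0.6021 and 85.38 CPM in peak Cre+ and at most 0.8077 CPM in naive Cre+. Lcn2, an iron-binding protein of neutrophils and reactive cells, had 24.36, 22.36 and 320.4 CPM, and its log2 change of 3.18 ± 1.00 was 0.77 without replicate 3. Lyz2, a lysozyme of myeloid cells, was also highest in that library, at 651, 655.6 and 1587 CPM in the peak replicates. Of 12 lymphocyte markers 4 had enough reads to test and 2 rose (Cd4 and Nkg7). The call of Nkg7 rested on the same library, with a log2 change of 4.29 that was 2.04 without peak replicate 3 (adjusted p = 0.151). The lymphocyte sum was 0.5148 to 1.208 CPM in naive Cre+ and 3.011 to 11.19 CPM in peak Cre+.

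Markers of neural cells were present at low levels. Astrocyte markers were higher in 10 of 11 cases with a median log2 change of 1.20, and in 6 with naive replicate 1 and peak replicate 3 left out, and their sum was 300.3 to 349.8 CPM in naive Cre+ and 369.5 to 496.8 CPM in peak Cre+. The same 10 of 11 count was found in Cre-. Oligodendrocyte precursor markers were higher in 4 of 7 cases, with sums of 14.65 to 20.77 CPM and 40.51 to 63.94 CPM. Oligodendrocyte markers were higher in 0 and lower in 2 of 11, Mag (log2 -0.33) and Cnp (-0.29). Both calls were lost without naive replicate 1 (edgeR adjusted p = 0.0729 and 0.189), with upper quartile scaling (0.0909 and 0.157) and in the fit restricted to the 6 libraries (0.0817 and 0.0769). The sums were 186.5 to 218.2 CPM and 171.4 to 218.5 CPM, and Mbp, the main myelin protein message, was not called (log2 0.30 ± 0.14, edgeR adjusted p = 0.0848). The part of these cells' RNA in the results above was not tested.

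**Figure D4:**
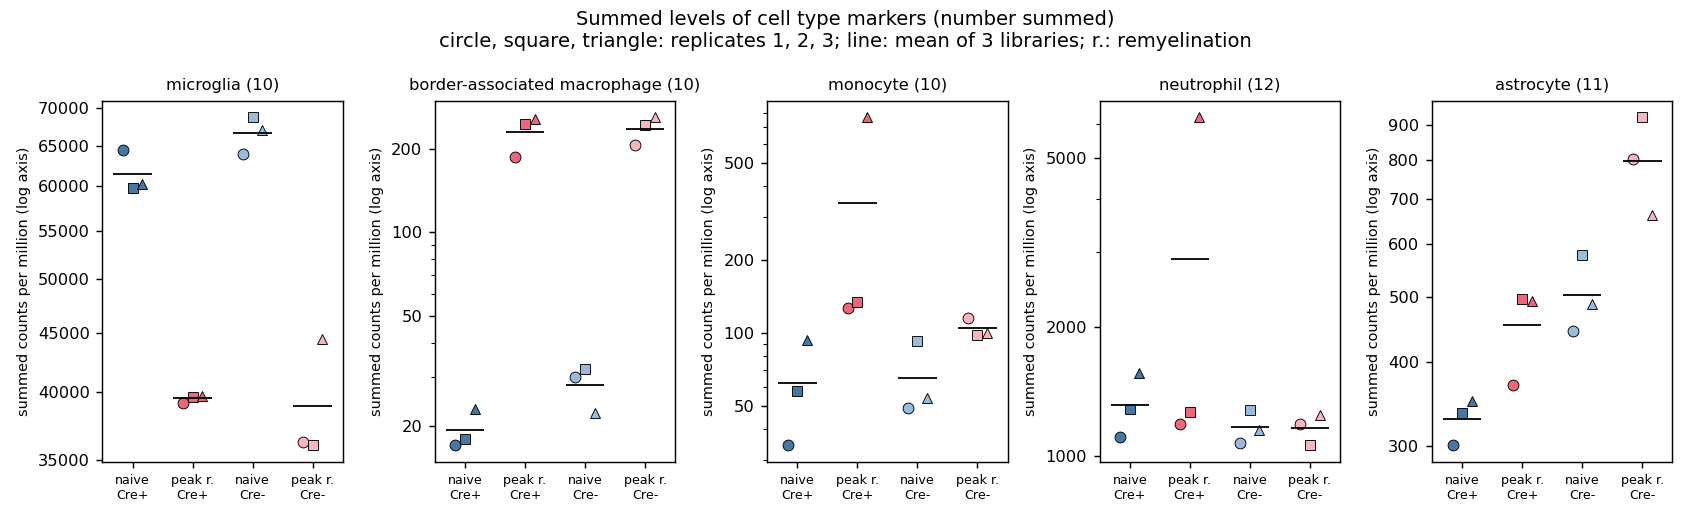
Summed CPM of marker lists for microglia, border-associated macrophages, monocytes, neutrophils and astrocytes in each library (log axis), by group. The groups are naive and peak remyelination of Cre+ and Cre- mice, symbols are replicates 1 to 3 and lines are means; peak Cre+ replicate 3 has 6208 CPM of neutrophil markers against 1057 to 1560 CPM in the other 11 libraries of these 4 groups.

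Among the largest falls, Klrd1, a lectin receptor best known on natural killer cells, had 26.11, 30.2 and 29.92 CPM in naive Cre+ and 8.395, 8.773 and 8.651 CPM in peak Cre+ (log2 -1.74 ± 0.29, edgeR adjusted p = 4.7e-05). In Cre- mice it was 5.854 ± 3.42 CPM when naive and 1.587 ± 0.183 CPM at the peak state (SD, n = 3 each), lower in both states than in Cre+ libraries of the same state. Esr1 (chr10:4611593-5005614), the oestrogen receptor to which tamoxifen binds, had 41.28, 28.42 and 31 CPM against 14.42, 11.78 and 10.91 CPM (log2 -1.44 ± 0.18, edgeR adjusted p = 7e-07). It was 9.589 ± 1.51 CPM in naive Cre-. From there Esr1 rose by 0.5 on the log2 scale to peak Cre-, a call that was lost after correction for GC content and length (0.146). Its naive Cre+ libraries thus stood above the peak Cre+ libraries and the naive Cre- mean. The creERT2 transgene contains a mutated oestrogen receptor domain of human origin, and whether its reads enter the mouse Esr1 count was not tested. Alb, Hyal4, Hyal6 and Xlr3b fell by 1.43, 1.64, 1.41 and 2.17, and the most abundant falls of at least 1 on the log2 scale were Gpr34, Rsrp1, Fcgr3, Calm2, H3f3b and Rgs2, between 1.03 and 1.20.

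Whether the peak-minus-naive change differed between genotypes was tested directly. The difference passed in 208 genes toward Cre+ (1.18%) and 182 genes toward Cre- (1.04%) by edgeR's test. This split was not stable. Of the calls, 53.3% were toward Cre+ as reported, 33.5% in the libraries compared alone and 73.9% without naive Cre- replicate 2. The shared library set enters both changes, so an effect of the set that is the same on the log scale in both genotypes drops out. On the G2 and mitosis list 6 of 25 genes passed, all toward Cre+, with a median difference of 1.88, and on the S phase list 5 of 23 passed, all toward Cre+, with a median of 0.83. The count of 6 ranged from 1, without peak Cre- replicate 2, to 19 with DESeq2's Wald test, while the median stayed between 1.44 and 2.22. No interferon gene passed, and 3 of 29 disease-associated genes did.

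Mki67 had a difference of 2.52 ± 0.59 (edgeR adjusted p = 0.0351), from a rise of 1.90 in Cre+ and a change of -0.62 in Cre- that was not called. Cdk1 rose by 0.84 in Cre+ and fell by 1.01 in Cre-, a difference of 1.85 ± 0.32 (adjusted p = 0.00618). Mcm5 rose by 0.95 and fell by 0.76, a difference of 1.71 ± 0.29 (adjusted p = 0.00543). Cdkn1a had the most marked opposition of these, a rise of 1.44 in Cre+ and a fall of 1.14 in Cre-, with a difference of 2.57 ± 0.33 (adjusted p = 0.00108). Pbk, a mitotic kinase, was 3.744, 19.62 and 15.38 CPM in naive Cre+ and 23.82, 18.15 and 18.71 CPM in peak Cre+ and was not called there (adjusted p = 0.136), but fell by 1.98 ± 0.49 in Cre-. Its difference of 2.61 ± 0.59 was made of that fall and a change of 0.63 in Cre+.

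Several differences began with unequal naive levels. Ccr1 (chr9:123962124-123968692), a chemokine receptor, had 0.9828, 4.398 and 3.038 CPM in naive Cre+ and 11.68, 10.06 and 14.67 CPM in peak Cre+, but 33.96 ± 3.23 CPM in naive Cre- and 16.61 ± 1.76 CPM in peak Cre- (SD, n = 3 each). Its difference was 3.07 ± 0.54 (edgeR adjusted p = 0.0105). Plin3, at 21.3 ± 2.23 CPM in naive Cre- and 21.81 ± 2.35 CPM in peak Cre-, rose in Cre+ toward that level (difference 1.38 ± 0.23, adjusted p = 0.00429). Stard4 was 3.675 ± 0.61 CPM and 3.782 ± 1.33 CPM in Cre- (difference 2.35 ± 0.43, adjusted p = 0.00685). For Ccr1 and Plin3 the naive Cre+ libraries were the low group, and for Esr1 and Hsp90aa1, with differences of -1.94 ± 0.25 and -1.03 ± 0.20, they were the high group. Dvl1, Tesk1, Crebzf, Otud1 and Zfpm1 were instead low in naive Cre- (means of 1.642 to 15.59 CPM) and had risen by 1.99 to 3.58 there. Of the 24 named genes with a passing difference, 10 passed under all 22 alternatives: Ccr1, Cdk1, Cdkn1a, Crtap, Cxcl2, Esr1, Hsp90aa1, Mcm5, Plin3 and Stard4. The other 14, with Mki67 among them, lost it under some.

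**Figure D5:**
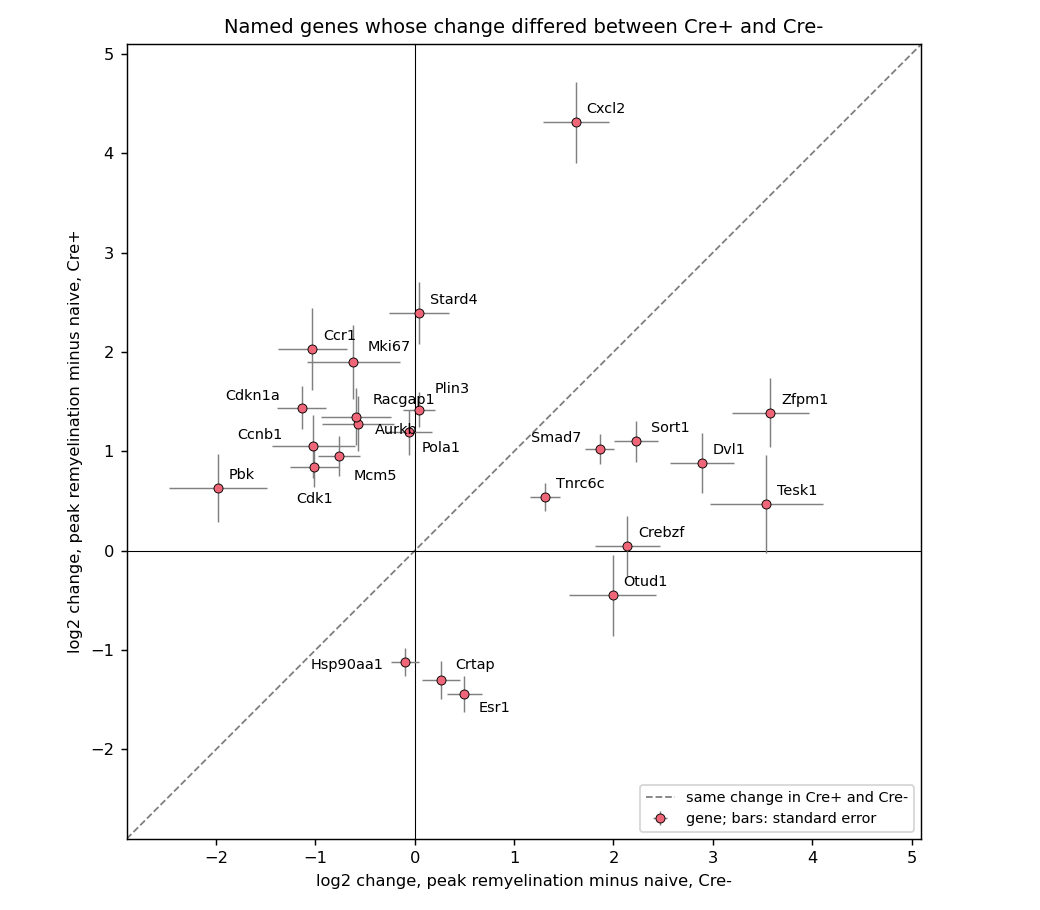
Log2 change from naive to peak in Cre- (x axis) and Cre+ (y axis), with SE bars, for the 24 named genes whose change differed between genotypes. The dashed diagonal marks an equal change; Mki67, Cdk1, Mcm5 and Cdkn1a lie above it and Esr1, Hsp90aa1 and Tesk1 below it.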

How the data were processed

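RNA from flow-sorted CD45-intermediate, CD11b-positive brain microglia of 24 mouse samples was sequenced, 3 per state and genotype. The authors deposited raw read counts per Ensembl gene, made, per the submitters' processing notes, with Trimmomatic 0.36, STAR 2.5.2b and featureCounts of Subread 1.5.2 on GRCm38. Of 49315 gene IDs, 49056 matched GENCODE M21. For the strand setting and for multiply mapping reads, the entry is: not given in the sources used here. Without strand, reads of overlapping or antisense genes cannot be told apart.

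Counts of all 24 libraries were filtered by expression, scaled by TMM and fitted with edgeR 4.0.16 (quasi-likelihood, robust) in R 4.3.3, and p-values were adjusted over 17579 genes. SE is the log2 change divided by the square root of the F statistic. Listed genes with too few reads to test were Lilrb4a, Ifi44l, Nos2, Cdkn2a, Eda2r, Bdnf, Lif, Cntf, Il10, Lrrc33, Lin28a and Egr3, beside cell markers. A call is an adjusted p below 0.05. Alternatives were other scalings, DESeq2 1.42.0, other filters, a fit of only the libraries compared, a replicate block, a correction for GC content and length, and leaving out libraries. On counts simulated for the comparison of peak with naive Cre+, the fit recovered 85 of 100 genes changed by 1 on the log2 scale. It recovered 97 of 100 changed by 2, with 4 false calls among the unchanged genes of the 17008 tested. The changed genes were drawn from those with an average log2 CPM of at least 2, so recovery at lower levels was not tested. Only the drawn genes were changed and all other means were equal, whereas 45.8% of genes were called in the real comparison. The simulation therefore does not give the rate of false calls there.

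The comparison, its gene lists and the named genes were chosen with earlier results of these data known. Named were Dicer1 and Cx3cr1; the 10 largest rises and falls and the 6 most abundant rises and falls of at least 1 on the log2 scale, among protein-coding genes whose groups did not overlap and whose average log2 CPM reached 2; up to 4 members of each list by smallest p; and the 6 largest differences between genotypes in each direction. The comparison of peak with start remyelination, and the fit without naive Cre+ replicate 1 and peak Cre+ replicate 3, were added after the data were seen, as was the search for all 4 cell cycle motifs in both cell cycle lists. P-values measure the spread between samples that the series text calls biological replicates. Some genes of the lists are not reported here by name.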

Additional observations from a re-analysis of the deposited data

Results flagged for a closer look

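For 24 named genes the change from naive to peak remyelination differed between Cre+ and Cre- mice by edgeR's test of the difference itself. The difference in log2 change, Cre+ minus Cre-, was positive for the cell cycle genes Mki67 (2.52), Pbk (2.61), Ccnb1 (2.07), Racgap1 (1.94), Cdk1 (1.85), Aurkb (1.85), Mcm5 (1.71) and Pola1 (1.25), and for the inhibitor Cdkn1a (2.57). It was also positive for the chemokine receptor Ccr1 (3.07), the chemokine Cxcl2 (2.68), the cholesterol carrier Stard4 (2.35) and the droplet protein Plin3 (1.38). It was negative for Tesk1 (-3.07), Otud1 (-2.44), Zfpm1 (-2.19), Crebzf (-2.09), Dvl1 (-2.02), Esr1 (-1.94), Crtap (-1.56), Sort1 (-1.13), Hsp90aa1 (-1.03), Smad7 (-0.84) and Tnrc6c (-0.77). Sort1, a sorting receptor, rose in both genotypes, from 140.8, 193.9 and 242.3 CPM to 356.8, 438.6 and 441.9 CPM in Cre+ and from 89.47 ± 16.0 to 419 ± 55.1 CPM in Cre- (SD, n = 3 each). Crtap, a partner of collagen-modifying enzymes, fell from 88.17, 55.48 and 58.69 CPM to 24.64, 28.99 and 28.3 CPM in Cre+ and was 20.42 ± 6.2 CPM in naive Cre- and 24.19 ± 1.17 CPM in peak Cre-.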

How the results depend on the processing

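Leaving out 1 library at a time gave 6644 to 7743 called genes for peak against naive in Cre+, 8874 to 9933 in Cre-, 8285 to 8524 for demyelination, 9418 to 10096 for peak against demyelination and 1341 to 2281 for peak against start. The lowest of the last were 1341 and 1432 without start Cre+ replicate 2 or 1, and 1505 and 1555 without peak Cre+ replicate 2 or 3. The difference between genotypes moved most, from 390 genes to 1109 with DESeq2's Wald test, 889 without the filter, 242 in the libraries compared alone and 89 to 1014 with 1 library left out. It was 89 and 115 without peak Cre- replicate 2 or 1, 1014, 115 and 186 without naive Cre- replicate 1, 2 or 3, 122 without peak Cre+ replicate 1 and 150 without naive Cre+ replicate 3. With naive Cre+ replicate 1 and peak Cre+ replicate 3 left out together, 6262 genes were called in Cre+. The replicate numbers did not pair the samples (same-number correlations of -0.066, -0.296 and 0.203 between naive and peak Cre+). With the replicate number as a block, 6169 genes were called in Cre+ (6654 without it in the same libraries), 157 for the difference between genotypes and 1145 for peak against start. The share of calls that were higher was 39.1% at demyelination after correction for GC content and length (50.4% as reported) and 41.2% for peak against start with upper quartile scaling (64.9% as reported). Medians larger than their spread between replicates that changed sign were, in Cre+ after that correction, -0.016 for the G1 list and -0.137 for the microRNA machinery. The change of Tnrc6c became -0.011 there (edgeR adjusted p = 0.954). Smaller medians that changed sign, such as those of the NF-kB and p53 lists, are given with their lists above. For the difference between genotypes, with 1 library left out, the medians ranged from -0.019 to 0.43 for lipid handling (0.259 with all libraries) and from -0.007 to 0.762 for border-associated macrophages (0.578), both lowest without naive Cre- replicate 2, and from -1.089 to 0.065 for oligodendrocytes (-0.565), highest without peak Cre- replicate 2. That median was also 0.051 with at least 1 CPM in 3 libraries and, in the libraries compared, 0.049 without and 0.04 with the block. The median for lymphocytes, 0.953 as reported, was -1.239 without and -1.303 with the block in those libraries. The cause was not tested. Depth in the remyelination libraries limits genes of few reads.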

Other observations

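Markers of vessel, blood and nerve cells were counted as well. Of 11 endothelial markers 2 were higher and 1 lower in peak than in naive Cre+, and in Cre- mice 8 were higher and 2 lower. The higher markers in Cre+, Cdh5 and Kdr, were lost without naive Cre+ replicate 1 (edgeR adjusted p = 0.0937 and 0.0522), naive Cre+ replicate 2 (0.122 and 0.0727) or peak Cre+ replicate 2 (0.0807 and 0.154). Of 10 mural markers 2 were higher in Cre+ and 9 in Cre-, and of 5 erythroid markers 1 was higher in Cre+ (Hba-a2, lost without either naive replicate 1 or peak replicate 3, adjusted p = 0.0502 and 0.203 by edgeR) and 5 in Cre-. No single marker of these lists passed the test of the difference between genotypes by edgeR, and of 9 neuronal markers 1, the long RNA Meg3, was higher in Cre+ and none lower. The call of Meg3 was lost under 10 alternatives, among them DESeq2 (adjusted p = 0.06), correction for GC content and length (0.244) and leaving out naive replicate 1 (0.116) or peak replicate 2, where its log2 change of 1.30 was 0.60. The summed mural level was 10.72 to 21.69 CPM in naive Cre+ and 13.5 to 41.37 CPM in peak Cre+, against 9.441 to 27.45 CPM and 33.01 to 87.91 CPM in Cre-. Globin genes have near-identical copies, so single erythroid values are uncertain.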
